A study of Homo sapiens with 6 samples.

Results

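The homeobox genes that lie outside the HOX clusters were examined in SW1990 cells treated with the DOT1L inhibitor EPZ-5676 and in their controls. The labels give the cells as SW1990, an established human line derived from a pancreatic ductal adenocarcinoma. Part of the epithelial markers went against that label: CDH1 and CEACAM6 had 0 reads in all 6 libraries and KRT19 had almost none, while KRT7, KRT8 and KRT18 were abundant. The identity of the line was not tested, and levels below, with the missing pancreas factors, are those of the cells labelled SW1990. The members were the protein-coding genes that the deposited table assigns to the transcription factor family Homeobox, leaving out symbols that start with HOX or ZEB. This gave 153 of the 58735 genes in the table. The rule used no expression value. A pair of members, AC004080.3 and AC012531.2, are described in the table as readthrough transcripts of HOXA and HOXC genes, and both had 0 reads. POU, CUT and PAX genes, which also carry a homeobox, stand in other families of the table.

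The 3 EPZ-5676 libraries came from cells given 5 µM of the compound, and the 3 control libraries from cells that the treatment protocol says received the same volume of its solvent, DMSO. The sample characteristics call those controls untreated. All 6 libraries are polyadenylated RNA of the one line, and how long the cells were treated is not stated in those sources. Nothing in the labels says that the replicates were separate cultures, so the p-values rest on the scatter among these 6 samples alone, and that scatter may be technical.

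Homeobox proteins bind DNA through the homeodomain, a short helical fold whose recognition helix reads AT-rich sites that often hold the core TAAT. They are known for setting positional and cell identity in the embryo, and several act in the pancreas: PDX1 in the early bud and the beta cell and NKX6-1 and NKX2-2 in endocrine cells. DOT1L is a histone H3 methyltransferase that marks transcribed gene bodies, and in leukaemia its inhibition is known for lowering HOXA genes and MEIS1. The members were grouped by homeobox class: ANTP (NKX, DLX, MSX and related genes), PRD (paired-like genes), TALE (MEIS, PBX, IRX and TGIF genes, with an extended loop in the homeodomain), LIM, sine oculis (SIX2, SIX5 and their relatives), ZF (homeodomains joined to zinc fingers), HNF and CERS. The CERS genes encode ceramide synthases, enzymes of sphingolipid synthesis that carry a homeobox-like domain.

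The cells labelled SW1990 carried a restricted homeobox repertoire. A gene was counted as expressed when it passed edgeR's filter on low counts (filterByExpr by group, minimum count 10). By that rule 57 of the 153 members were expressed (37.3%), against 63.3% of all protein-coding genes. Another 24 members had some reads but stayed below the filter, at no more than 62 reads summed over the 6 libraries. The remaining 72 had 0 reads in all 6 libraries (47.1%, against 21.6% of protein-coding genes). A count of 0 allows a level of up to 3 reads per library, which is 0.0759 to 0.0966 CPM (reads scaled to the library total) in the EPZ-5676 libraries and 0.0754 to 0.0859 CPM in the controls. That limit covers counting error only. Among expressed members, 37 had a mean level of at least 1 FPKM, which is CPM per kilobase of the gene length in the table.

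The classes differed in how many members were expressed. In the ANTP class 20 of 62 members were, and 30 had 0 reads. In the PRD class 6 of 38 were expressed and 26 had 0 reads. The TALE class had 12 of 19 expressed, the ZF class 7 of 8, the LIM class 5 of 11, the sine oculis class 4 of 6, the CERS class 2 of 4 and the HNF class 1 of 2. For comparison, 27 of 39 HOX cluster genes were expressed (69.2%).

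**Figure D1:**
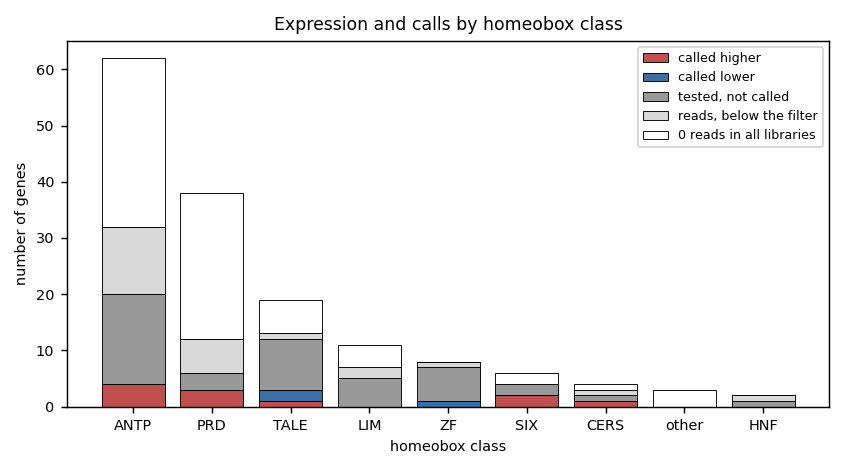
Number of members in each homeobox class (bars), split by whether they were called higher or lower with EPZ-5676, tested and not called, below the filter on low counts, or at 0 reads in all 6 libraries. The ANTP and PRD classes hold 30 and 26 members without reads, and the 3 members of no listed class had 0 reads.

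On a list of 20 homeobox regulators of the pancreas, 10 had 0 reads (50%) and 7 were expressed (35%). Over the 153 members these shares were 47.1% and 37.3%. PDX1, NKX6-1, NKX2-2, CDX2, LMX1A and LMX1B had 0 reads in every EPZ-5676 and every control library. NKX6-2 had 1 read and ISL1 had 13 reads in all, both below the filter. Outside the family as the table defines it, ONECUT1, PAX4 and PROX1 also had 0 reads. MNX1, HHEX, MEIS1 and MEIS2 were expressed, as was PAX6 from another family, and none of these passed the test.

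Several of the most expressed members are better known from other organs. BARX1, a factor of stomach mesenchyme and tooth, had 72.5 ± 9.23 FPKM in EPZ-5676 libraries and 56.3 ± 4.37 FPKM in controls (mean ± SD, n = 3 each, as in all such pairs here). PITX1, a factor of hindlimb and pituitary, had 62.6 ± 3.26 and 51.9 ± 4.93 FPKM in EPZ-5676 and control libraries. These 2 stood apart from the rest and overlapped each other in both groups. Next came PBX2, a DNA-binding partner of HOX proteins, with 20.8 ± 1.12 FPKM in EPZ-5676 libraries and 17.9 ± 1.82 FPKM in controls. IRX3, an Iroquois factor, had 17.4 ± 1.44 FPKM with EPZ-5676 and 17.3 ± 2.41 FPKM in controls. NKX2-5, a factor of heart development, had 16.9 ± 1.00 FPKM with EPZ-5676 and 12.0 ± 0.833 FPKM in controls. SIX2, which maintains kidney progenitors, had 16.3 ± 0.726 FPKM with EPZ-5676 and 11.7 ± 0.256 FPKM in controls. In the controls PBX2 and IRX3 differed by less than their SDs. NKX2-5 and SIX2 differed by less than the SD of NKX2-5 in both groups, so these data do not order that pair. The ceramide synthase CERS5 (9.90 FPKM over all 6 libraries), the sensory neuron factor TLX3 (8.50), MEIS3 (8.25) and TGIF2 (8.17), a repressor of TGF-beta responses, complete the leading 10.

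**Figure D2:**
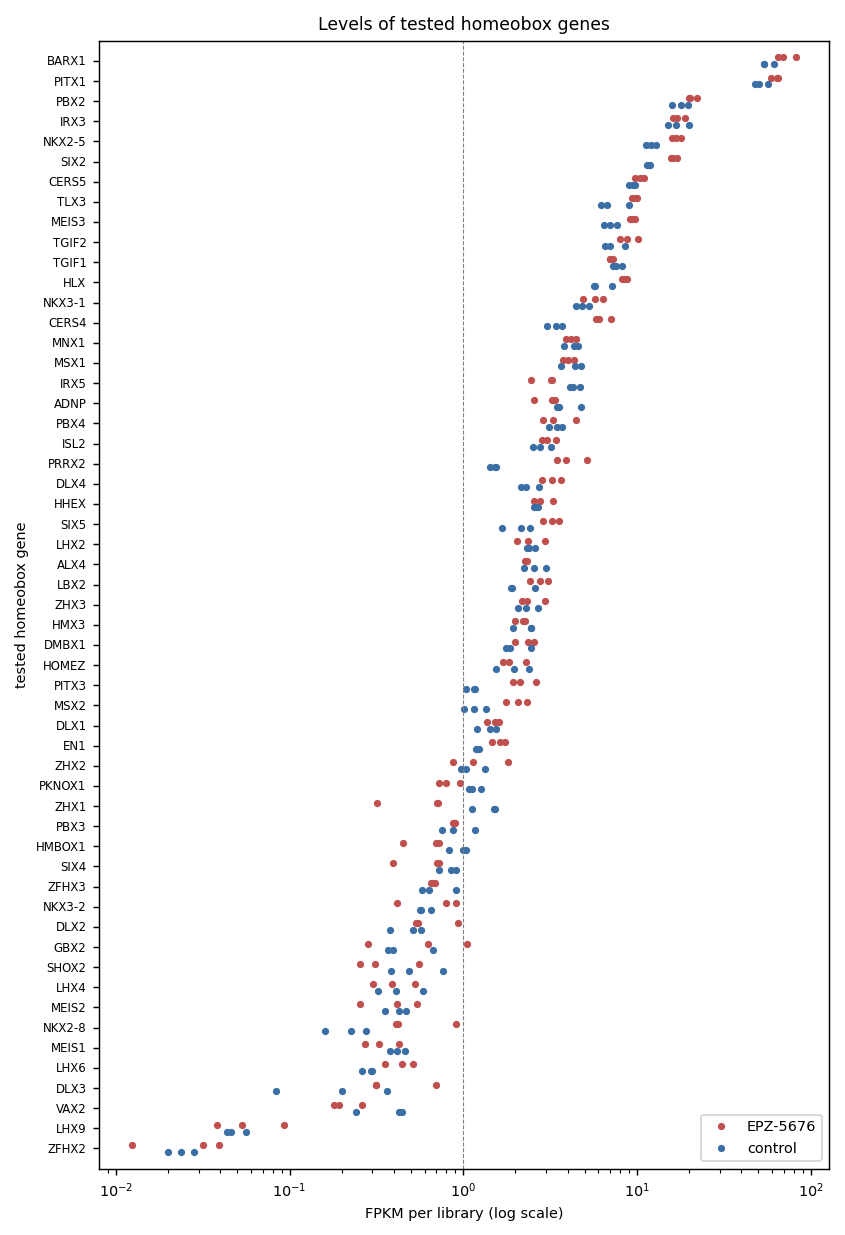
FPKM of 55 tested members in each library on a log axis, with EPZ-5676 libraries (red) drawn above control libraries (blue) for each gene, ordered by mean level. The dashed line marks 1 FPKM; 6 of the members shown lie at a mean of 10 FPKM or more and 19 below 1 FPKM.

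Expression often stopped between neighbouring paralogs. SIX2 lies 59.1 kb from SIX3, and SIX3 had 0 reads in all 6 libraries. On chromosome 14, SIX4 was expressed, while SIX6, 197 kb away, had 0 reads. IRX3 and IRX5 on chromosome 16 were expressed and IRX6, 389 kb from IRX5, had 0 reads, as did IRX1, IRX2 and IRX4 on chromosome 5. DLX1 and DLX2 (9.76 kb apart) and DLX3 and DLX4 (15.0 kb apart) were expressed, while DLX5 and DLX6 had 0 reads. Of 28 pairs of members within 500 kb of each other, 5 had both expressed, 10 had one and 13 had none.

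EPZ-5676 was accompanied by modest changes in this family, with more rises than falls. Of the 57 tested members, 11 were higher and 3 lower (threshold 0.05 on the p-value from the quasi-likelihood test of edgeR, adjusted by Benjamini-Hochberg over 15496 tested genes). That is 19.3% higher and 5.26% lower, against 15.0% and 18.7% of all tested genes, and 24.6% called in either direction, against 33.7%. Among tested protein-coding genes 17.7% were higher and 21.8% lower, so the members differed mainly in having fewer falls. In bulk libraries, fewer cells expressing a gene and less RNA per cell cannot be told apart. The median log2 fold change was 0.14 for the tested members and -0.05 for all tested genes. Without EPZ-5676 replicate 1, or without control replicate 3, 7 members were higher. Over all tested genes 1350 and 1592 were higher in these fits, against 2326 with all 6 libraries. Every EPZ-5676 library lay above every control for 17 members and below for 7. Over all tested genes such separation was seen upward for 21.8% and downward for 24.2%.

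The fold changes of the members went with the GC content of their transcripts. Across the 57 tested members the log2 fold change had a Pearson correlation of 0.52 with the GC content of the longest annotated transcript (Spearman 0.53), and across 15487 tested genes one of 0.59 (0.66). These are descriptions across genes, which share the same 6 libraries. The tested members had a median GC content of 57.4%, against 49.4% for all tested genes. Called members that were higher had 47.6 to 70.0% GC (median 66.2%), while ZHX1 and IRX5, called lower, had 39.3 and 58.9%. A correction then took smooth trends with GC content and transcript length out of every library. After it, 4 of the 57 members were higher and 6 lower, against 837 and 862 of 15487 genes (5.40% and 5.57%). The share of higher among called members was 78.6% before the correction and 40% after it. Among all called genes it was 44.5% and 49.3%. Only 3 higher calls (PRRX2, CERS4 and MSX2) and 2 lower calls (ZHX1 and IRX5) were made both ways. Such a correction also removes any effect of treatment that follows GC content, and the part of GC content in the fold changes was not tested further.

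PRRX2 and MSX2 are shown by the sequence before their RefSeq start sites because both were called higher with and without the correction, each beside a paralog that was not. CERS4, also called higher both ways, is not shown. PRRX1, the paralog of PRRX2, had 0 reads in all 6 libraries, and MSX1, the paralog of MSX2, was expressed and not called. The sequences are the 250 bases before the RefSeq start site (GRCh38.p14, plus strand in each case), at chr9:129665397-129665646 for PRRX2, chr1:170663881-170664130 for PRRX1, chr5:174724332-174724581 for MSX2 and chr4:4859415-4859664 for MSX1. The gene starts used for the counts differ from these sites. The PRRX1 window lies inside that gene, which starts at 170662728 there. The PRRX2 and MSX2 windows run past the starts there, 129665641 and 174724533. Capitals mark TAAT and its reverse complement ATTA, the homeodomain core, with overlapping matches counted separately.
PRRX2: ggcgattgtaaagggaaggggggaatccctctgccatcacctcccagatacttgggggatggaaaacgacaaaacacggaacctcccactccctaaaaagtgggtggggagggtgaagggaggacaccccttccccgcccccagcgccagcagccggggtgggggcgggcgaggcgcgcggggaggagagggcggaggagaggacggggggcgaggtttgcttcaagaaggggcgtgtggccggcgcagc
PRRX1: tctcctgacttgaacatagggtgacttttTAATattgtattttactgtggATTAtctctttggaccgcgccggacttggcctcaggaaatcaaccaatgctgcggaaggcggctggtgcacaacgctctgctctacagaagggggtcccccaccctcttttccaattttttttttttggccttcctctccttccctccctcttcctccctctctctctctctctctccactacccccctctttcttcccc
MSX2: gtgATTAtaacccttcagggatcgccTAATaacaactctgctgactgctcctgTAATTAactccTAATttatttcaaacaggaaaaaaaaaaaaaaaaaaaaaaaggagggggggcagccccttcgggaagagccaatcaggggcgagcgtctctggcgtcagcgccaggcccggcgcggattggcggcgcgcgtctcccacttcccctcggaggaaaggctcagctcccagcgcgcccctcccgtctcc
MSX1: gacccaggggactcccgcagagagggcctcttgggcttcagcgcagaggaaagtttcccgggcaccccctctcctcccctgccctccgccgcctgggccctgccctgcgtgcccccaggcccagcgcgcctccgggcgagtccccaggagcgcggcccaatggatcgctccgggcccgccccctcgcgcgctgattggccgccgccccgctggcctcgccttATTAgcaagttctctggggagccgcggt
The PRRX2 window held 0 matches, PRRX1 2, MSX2 5 and MSX1 1. CG dinucleotides numbered 17 before PRRX2, 6 before PRRX1, 17 before MSX2 and 24 before MSX1. None of the 4 windows held TATAAA or its reverse complement. RefSeq promoters were found for 105 of the 153 members, 141 windows in all, of which 46.1% held TAAT or ATTA, against 47.4% of 35116 promoters of any gene. The median number of CG dinucleotides was 21.0 in windows of tested members, 18.5 in those of untested members and 11.0 over all promoters.

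PRRX2 (chromosome 9, 129665641 to 129722674, GRCh38), a paired-related factor of embryonic mesenchyme, had the largest log2 fold change among the called members. Its level was 5.09, 4.53 and 6.78 CPM in the EPZ-5676 libraries and 1.86, 2.03 and 2.01 CPM in the controls. The groups were far apart, with a log2 fold change of 1.47 ± 0.27 (SE, as below; adjusted p = 0.000488), or 0.99 ± 0.25 after the correction (adjusted p = 0.0127). PITX3 (chromosome 10, 102230186 to 102241474), a factor of the lens and of dopaminergic neurons, was at 2.70, 2.94 and 3.64 CPM with EPZ-5676 and 1.61, 1.63 and 1.45 CPM in controls. PITX3 rose by 0.99 ± 0.30 on the log2 scale (adjusted p = 0.0162), but the call was lost after the correction (0.327), without EPZ-5676 replicate 3 (0.0787) and without control replicate 3 (0.0597).

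PITX1 (chromosome 5, 135027735 to 135034813), the second most expressed member, was at 229, 207 and 224 CPM with EPZ-5676 and 168, 201 and 177 CPM in controls. The groups did not overlap, but the log2 fold change was only 0.27 ± 0.10 (adjusted p = 0.0422). The correction turned its direction, to -0.23 ± 0.07 (adjusted p = 0.0353). The call was also lost with a replicate block (0.103), with no filter on low counts (0.058), and without any library except control replicate 2 (0.0537 to 0.131), so no direction is given for it. The remaining PRD members, ALX4, DMBX1 and SHOX2, were not called, although ALX4 was called lower after the correction (-0.47 ± 0.13, adjusted p = 0.0246).

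CERS4 (chromosome 19, 8206736 to 8262421), a ceramide synthase, had the smallest adjusted p of the family. It was at 28.8, 23.7 and 24.7 CPM in the EPZ-5676 libraries and 13.9, 12.4 and 15.0 CPM in the controls. The groups were well separated, with a fold change of 1.87 (log2 0.90 ± 0.15, adjusted p = 0.000289), and the corrected log2 value was 0.62 ± 0.13 (adjusted p = 0.00327). CERS5 did not pass, at 73.9, 70.3 and 65.7 CPM with EPZ-5676 and 65.9, 64.3 and 60.8 CPM in controls, which overlap at a log2 fold change of 0.14 ± 0.10 (adjusted p = 0.338). CERS6 had 2 reads in all and CERS3 had 0.

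In the ANTP class MSX2, BARX1, NKX2-5 and HLX were called higher, 0 were lower, and 16 of 20 tested members did not pass. MSX2 (chromosome 5, 174724533 to 174730893), a craniofacial and limb factor downstream of BMP signals, was at 5.28, 4.70 and 4.02 CPM with EPZ-5676 and 2.62, 3.06 and 2.28 CPM in controls. The lowest treated library stood above the highest control. It rose by 0.81 ± 0.26 on the log2 scale (adjusted p = 0.0199), with a corrected value of 0.95 ± 0.25 (0.0147). This call did not hold without EPZ-5676 replicate 1 (0.0807), control replicate 1 (0.0559) or control replicate 3 (0.0871). MSX1 was at 8.55 ± 0.678 CPM with EPZ-5676 and 9.10 ± 1.18 CPM in controls, with overlapping groups (-0.09 ± 0.19, adjusted p = 0.746).

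NKX2-5 (chromosome 5, 173232109 to 173235357) was at 37.5, 35.4 and 33.3 CPM with EPZ-5676 and 23.5, 27.0 and 25.1 CPM in controls. The groups were separate, with a log2 fold change of 0.49 ± 0.13 (adjusted p = 0.0064), which was 0.03 ± 0.10 after the correction (0.895). HLX (chromosome 1, 220879400 to 220885059), a factor of gut and liver mesenchyme, was at 49.4, 47.7 and 46.7 CPM with EPZ-5676 and 32.1, 40.7 and 32.7 CPM in controls. Control replicate 2 lay nearest to the treated libraries. HLX rose by 0.45 ± 0.12 on the log2 scale (adjusted p = 0.0083), with a corrected value of 0.27 ± 0.10 (0.0927).

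BARX1 (chromosome 9, 93951622 to 93955372) was at 147, 115 and 124 CPM with EPZ-5676 and 95.4, 109 and 95.5 CPM in controls. The nearest libraries, EPZ-5676 replicate 2 and control replicate 2, were close. The log2 fold change of 0.37 ± 0.11 (adjusted p = 0.0136) became -0.14 ± 0.08 after the correction (0.276), and the call was lost without EPZ-5676 replicate 1 (0.0966) or control replicate 3 (0.0627). Among ANTP members not called, TLX3 was at 14.4 ± 0.496 CPM with EPZ-5676 and 11.0 ± 2.27 CPM in controls (0.40 ± 0.17, adjusted p = 0.0825). MNX1, a factor of motor neurons and the pancreatic bud, was at 17.6 ± 1.14 CPM with EPZ-5676 and 17.8 ± 1.67 CPM in controls (-0.02 ± 0.15, adjusted p = 0.935), and was called lower only after the correction (-0.52 ± 0.12, 0.00744).

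**Figure D3:**
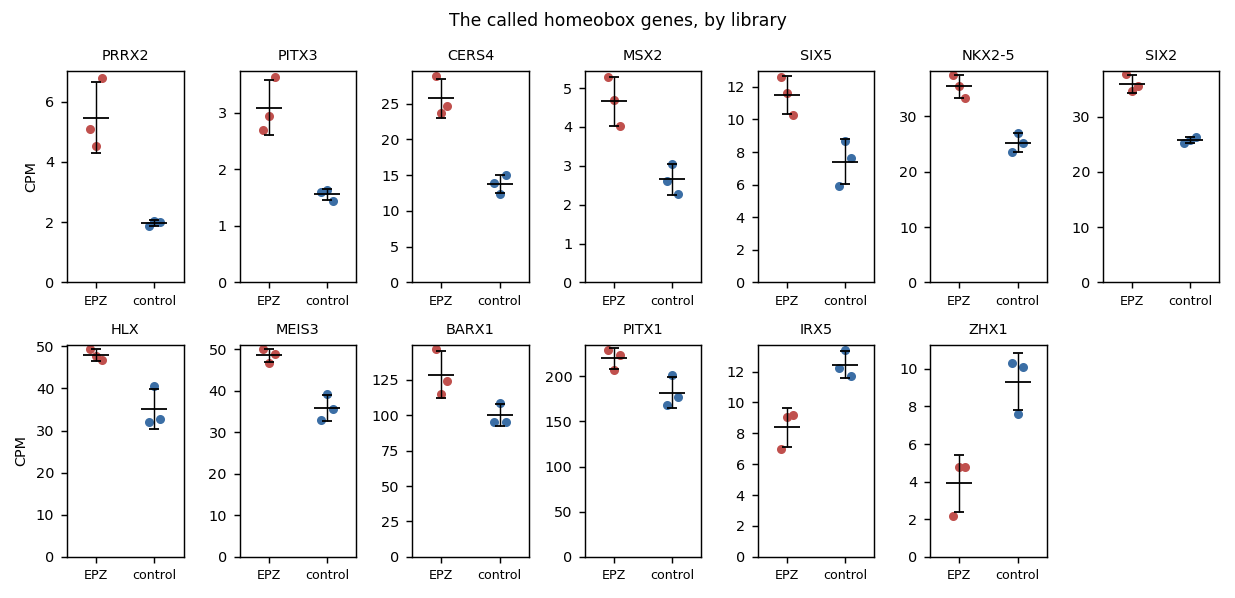
CPM of 13 called members in each EPZ-5676 (red, left) and control (blue, right) library, with the mean and SD of each group as bars, ordered from the highest to the lowest log2 fold change. In each panel the 3 treated libraries lie on one side of the 3 controls.

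In the sine oculis class SIX2 and SIX5 were called higher, and SIX4 did not pass. SIX2 (chromosome 2, 45005161 to 45009430) was at 37.7, 34.6 and 35.5 CPM with EPZ-5676 and 25.3, 25.8 and 26.4 CPM in controls. The spread within each group was small beside the gap (log2 fold change 0.48 ± 0.12, adjusted p = 0.00632), but the value after the correction was 0.08 ± 0.10 (0.686). SIX5 (chromosome 19, 45764785 to 45769226), which lies next to the myotonic dystrophy locus, was at 12.6, 11.6 and 10.3 CPM with EPZ-5676 and 5.91, 8.67 and 7.64 CPM in controls. The uncorrected log2 fold change of SIX5 was 0.63 ± 0.19 (adjusted p = 0.0147), the corrected one 0.15 ± 0.16 (0.612). The call was lost without EPZ-5676 replicate 1 (0.0636) or control replicate 1 (0.0741). An RNA on the opposite strand, AC074212.1, overlaps 2020 bases of SIX5 exons and had 15.6% as many reads. No source used here states the strand setting of the counting, so reads of the 2 genes cannot be told apart.

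In the TALE class, IRX5 (chromosome 16, 54930862 to 54934485), an Iroquois factor, was called lower, at 6.95, 9.06 and 9.20 CPM with EPZ-5676 and 12.2, 13.4 and 11.7 CPM in controls. EPZ-5676 replicate 1 was the lowest library. IRX5 had a log2 fold change of -0.56 ± 0.18 (adjusted p = 0.0204), with a corrected value of -0.87 ± 0.16 (0.00125). The call was lost without EPZ-5676 replicate 1 (0.104), control replicate 1 (0.0511) or control replicate 2 (0.059).

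MEIS3 (chromosome 19, 47403124 to 47419523) was the only TALE member called higher, at 50.1, 46.8 and 48.8 CPM with EPZ-5676 and 33.0, 39.2 and 35.7 CPM in controls. Its log2 fold change of 0.43 ± 0.12 (adjusted p = 0.00753) became 0.06 ± 0.09 after the correction (0.735). MEIS1, at 2.96, 4.67 and 3.57 CPM with EPZ-5676 and 4.15, 4.55 and 5.07 CPM in controls, did not pass (-0.30 ± 0.25, adjusted p = 0.392). MEIS2 did not pass either (-0.04 ± 0.27, adjusted p = 0.932). The low level of both genes leaves wide errors. PBX2, PBX3, PBX4, PKNOX1, TGIF1, TGIF2 and IRX3 were not called. Of these, TGIF1 and IRX3 were called after the correction, TGIF1 higher (0.34 ± 0.10, adjusted p = 0.0263, against -0.11 ± 0.10 before) and IRX3 lower (-0.42 ± 0.09, 0.00394, against 0.01 ± 0.12 before).

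ZHX1 (chromosome 8, 123248451 to 123275541), a zinc finger and homeobox repressor, had the largest fall of the family. It was at 2.16, 4.76 and 4.80 CPM with EPZ-5676 and 10.3, 7.58 and 10.1 CPM in controls. EPZ-5676 replicate 1 was less than the other treated libraries, and all 3 were below every control. The control level was 2.37 times the EPZ-5676 level by the fit (log2 fold change -1.25 ± 0.26, adjusted p = 0.00135), with a corrected value of -0.74 ± 0.21 (0.0272). Without EPZ-5676 replicate 1 the log2 fold change was -0.96 (0.00736). Its relatives ZHX2 (0.19 ± 0.26, adjusted p = 0.594) and ZHX3 (0.09 ± 0.15, 0.689) did not pass. ADNP, a subunit of a chromatin complex, was at 25.8 ± 3.73 CPM with EPZ-5676 and 33.2 ± 5.91 CPM in controls (-0.36 ± 0.15, adjusted p = 0.0671). In the HNF class HMBOX1 just missed the threshold (-0.62 ± 0.24, adjusted p = 0.0504), and the 5 tested LIM members were not called, with LHX6 nearest (0.62 ± 0.32, 0.136).

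Some weakly expressed members had large fold changes that did not pass, namely NKX2-8 (1.38 ± 0.66, adjusted p = 0.11), DLX3 (1.03 ± 0.57, 0.172) and VAX2 (-0.81 ± 0.51, 0.228). Their errors were correspondingly wide.

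**Figure D4:**
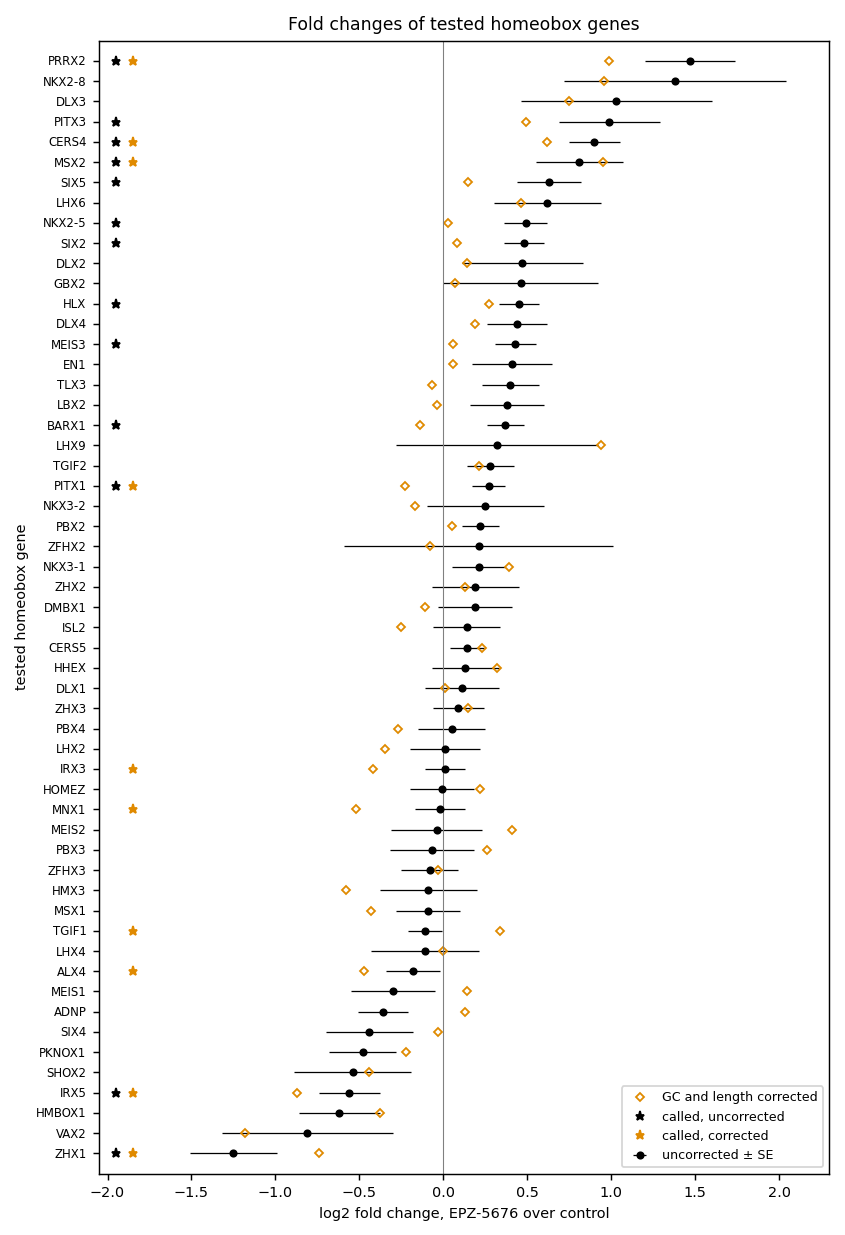
Log2 fold change, EPZ-5676 over control, of 55 tested members before the GC and length correction (black, with SE) and after it (orange diamonds); stars at the left mark calls at an adjusted p under 0.05. PRRX2 and ZHX1 are at the ends of the called members, at 1.47 and -1.25, and PITX1 is called on opposite sides of 0.

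**Figure D5:**
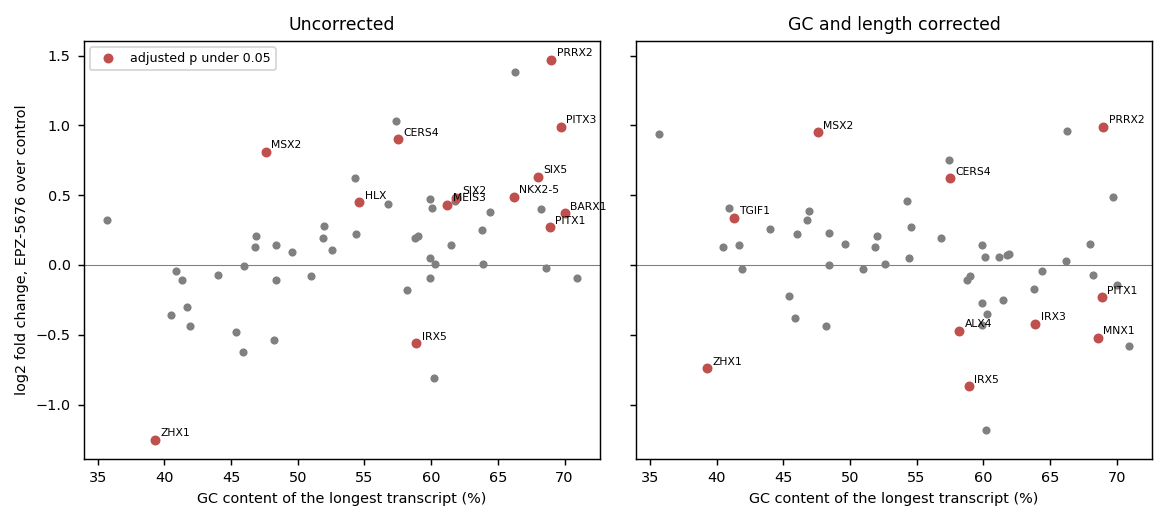
Log2 fold change, EPZ-5676 over control, of 55 tested members against the GC content of the longest transcript in percent, before (left) and after (right) the correction, with called members in red. Over all 57 tested members the Pearson correlation is 0.52 before and -0.16 after.

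Cofactors of homeobox proteins were also expressed. On a list of 22 such genes, 15 were tested, 4 were higher (26.7%) and 2 lower (13.3%). The median log2 fold change of those tested was 0.16. Over all tested genes 15.0% were higher and 18.7% lower, with a median of -0.05. This list and that of pancreas factors below were chosen with earlier results of these data known, so their shares are descriptions only. LMO1, a LIM-only protein, was higher (1.02 ± 0.25, adjusted p = 0.00428, and 0.86 after the correction, 0.021). LDB1 (0.39 ± 0.10, adjusted p = 0.00742) and SSBP4 (0.55 ± 0.10, 0.000648), which assemble LIM factor complexes, and the corepressor TLE2 (0.30 ± 0.11, 0.0439) were higher before the correction only. EYA4, a coactivator of sine oculis proteins (-0.95 ± 0.29, adjusted p = 0.0146), and RLIM, a ubiquitin ligase that acts on LIM cofactors (-0.82 ± 0.19, 0.00339), were lower before the correction only, and the RLIM groups overlapped. The cofactors DACH1 and DACH2 had 0 reads. Among 23 pancreas factors of other families, 11 were tested, with SOX9 (0.47 ± 0.15, adjusted p = 0.0197) and MAFA (1.38 ± 0.43, 0.0174) higher (18.2%) and RBPJ (-0.58 ± 0.16, 0.00854) lower (9.09%), against the same 15.0% and 18.7%. SOX9 was the only one called after the correction (0.45, 0.0228).

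The library totals were 33970420 to 39749648 reads with EPZ-5676 and 35042563 to 38132352 in controls. KRT19, a ductal keratin, had 8 to 19 reads per EPZ-5676 library and 10 to 26 per control. Summed over the 11 epithelial markers the level was 6920 to 8780 CPM with EPZ-5676 and 5780 to 6630 CPM in controls. KRT7, KRT8 and KRT18 made up most of these sums. KRT8 and KRT18 were called higher before the correction (adjusted p = 0.017 and 0.029) but not after it (0.418 and 0.491), and KRT7 neither way. EPCAM went the other way and did not pass (-0.81 ± 0.40, adjusted p = 0.123). The 7 fibroblast markers summed to 95.9 to 102 CPM with EPZ-5676 and 89.8 to 95.0 CPM in controls, with members called in both directions. COL1A1 was higher (0.48 ± 0.13, adjusted p = 0.00676), DCN (-0.46 ± 0.14, 0.0164) and LUM (-1.04 ± 0.30, 0.0105) were lower, and none of the 3 was called after the correction. Acinar and islet markers stayed at or under 0.379 CPM with EPZ-5676 and 0.201 CPM in controls, summed over each list. The part of these levels in the homeobox results was not tested. Exons on the opposite strand overlap 19 of the 57 tested members. For 7 of them (LBX2, LHX4, SHOX2, SIX5, ZFHX2, ZFHX3 and ZHX3) a partner had at least 10% as many reads, so their levels are uncertain, as is that of HOMEZ, which shares exon bases with PPP1R3E on the same strand.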

How the data were processed

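Polyadenylated RNA of SW1990 cells was sequenced in 3 EPZ-5676 and 3 control libraries made with dUTP in the second strand, per the labels' protocols. The submitters' processing notes name HISAT2 2.2.1 as aligner and GRCh38 as genome build. The deposited table holds raw read counts per gene, with no normalization. No source used here gives the counting tool, its strand setting or the annotation release. All 58735 genes had the chromosome, start, end and strand of GENCODE 29. Of counts from 1 to 20, 61.9 to 64.5% were even in EPZ-5676 libraries and 60.3 to 63.2% in controls, so these reads may not all be independent fragments.

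The main test was that of edgeR 4.0.16, run in R 4.3.3 (filterByExpr by group, minimum count 10, TMM scaling, robust two-sided quasi-likelihood test, Benjamini-Hochberg over 15496 genes, threshold 0.05). The SE is the size of the log2 fold change divided by the root of F. CPM used TMM-scaled totals and FPKM the gene length deposited in the table. The correction fitted natural splines with 5 degrees of freedom for GC content and for length of the longest GENCODE 29 transcript to each library's log2 CPM (prior count 2), entered as offsets. The script was tested on simulated data. Every called member, the 10 most expressed members and a list of pancreas homeobox genes were to be named by rule. The values of some of these genes are not reported here and not plotted, but the counts include them. Members and lists were chosen with earlier results of these data known. ADNP, CERS6 and other members outside that rule, and the sequences shown, were picked after values were seen. DESeq2 1.42.0 and 14 further alternatives were run. Promoters were taken from RefSeq (GRCh38.p14). Figures used Python 3.11.15 and matplotlib 3.10.9.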

Additional observations from a re-analysis of the deposited data

How the results depend on the processing

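In 15 alternatives the counts of called members stayed within 1.5 times of 11 higher and 3 lower, except as follows. With the GC and length correction 4 were higher and 6 lower, and with the replicate block and the correction together 3 and 5. Over all tested genes these fits called 837 and 862, and 688 and 685. With 1 library left out (uncorrected), 7 to 14 members were higher and 2 to 4 lower. The calls over all 15992 to 16021 genes tested in those fits moved too, from 1350 to 2780 higher and from 1753 to 3167 lower. The replicate block alone gave 10 higher and 3 lower, losing PITX1, and 1677 higher and 2219 lower over all tested genes. Nothing in the labels says that equal numbers share a culture or day, so the numbers were not taken to pair the samples. Deviations from the group means correlated at -0.11, -0.09 and 0.05 for equally numbered libraries and at -0.08 to 0.15 for the others. With 3 libraries per group such deviations are not independent, so they cannot decide the pairing. The direction turned, with a call on at least one side, for PITX1 (-0.23 with the correction and with both), BARX1 (-0.14 with each), IRX3 (-0.42 with each) and TGIF1 (0.34 with the correction). The other alternatives (RLE and upper-quartile scaling, both filters, DESeq2 and protein-coding genes alone) turned no called member. CERS4, PRRX2 and ZHX1 were past the threshold in each of the 15. Uncalled members changed sign in 57 of 850 comparisons of a member and an alternative. The number of expressed members was 37 at a mean of 1 FPKM or more, 54 with at least 10 reads in every library, 52 with at least 1 CPM in 3 libraries, 81 with any read, and 59 to 62 with 1 library left out. DESeq2 called 13 members higher and 4 lower, and 2841 higher and 2814 lower over all tested genes. Cofactors called higher were 1 with the correction, and lower 0. The cause of these shifts was not tested. Depth limits the members under 1 FPKM, whose SE reached 0.80 for ZFHX2.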
